A study of Mus musculus with 10 samples.

Results

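Cells leave or stay in the cycle during G1, and the genes that govern this choice were followed here in the dentate gyrus of mice from 4 to 12 weeks of age. They were Ccnd1, Ccnd2, Ccnd3 and Ccne2, which encode cyclins, Cdk4 and Cdk6, which encode the kinases that D-type cyclins activate, Cdkn1a, Cdkn1b and Cdkn2c, which encode kinase inhibitors, and Rb1, the retinoblastoma gene. A gene was measured by the probe set whose platform annotation names it alone, and by the brightest over the 10 arrays where there were several. Of the 10 genes 9 had such a probe set, among 19752 genes in all. The probe set of Cdkn1a is annotated to a second gene as well, so no value is given for Cdkn1a among the results. All 9 had a mean above 7.01 log2 units, the level reached by only the brightest 5% of 1207 olfactory, vomeronasal and trace amine receptor genes, which served as a reference for dim signal.

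Total RNA of dentate gyri was hybridised to whole-transcript Affymetrix arrays at 5 ages (4, 6, 8, 10 and 12 weeks), with 2 arrays per age. The mice were females per the labels, of a strain written C56BL/6J, without treatment, and the labels do not say how many animals gave the RNA of an array. Across the arrays Xist lay between 5.41 and 6.02 log2 units, under the dim reference, and the Y-linked gene Eif2s3y between 8.59 and 9.16, which goes against the labelled sex. The granule cell markers Prox1 and Calb1 had means of 12.29 and 12.63, far above the dim reference. Array medians ranged from 8.27 to 8.31. The choroid plexus gene Ttr reached 13.77 on 6 weeks replicate 1 against 8.87 to 10.15 elsewhere, and the array that correlated least with the rest, at a mean of 0.9952, was 8 weeks replicate 1, so results are also given without these arrays where that changed a call.

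In G1 the D-type cyclins bind Cdk4 or Cdk6 and phosphorylate the retinoblastoma protein, which otherwise holds E2F transcription factors inactive. Cyclin E with Cdk2 completes this step and admits the cell to S phase. INK4 inhibitors such as the product of Cdkn2c (p18) bind Cdk4 and Cdk6 directly, whereas CIP/KIP inhibitors such as those of Cdkn1a (p21) and Cdkn1b (p27) bind cyclin-kinase complexes and keep many postmitotic neurons and resting stem cells out of the cycle. In the dentate gyrus Ccnd2 is known as the D-type cyclin on which adult neurogenesis depends.

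None of the 9 genes passed an adjusted p of 0.05 in the linear trend over age (limma, Benjamini-Hochberg adjustment over 19752 genes), a rule that called 0.82% of all genes. Both D-cyclin kinases and the INK4 inhibitor gene had the largest negative changes, Cdk6 at −0.40 ± 0.09, Cdkn2c at −0.40 ± 0.11 and Cdk4 at −0.27 ± 0.06 (log2 over the 8 weeks of the series, SE), followed by Rb1 at −0.19 ± 0.06. The 3 D-type cyclins, Ccne2 and Cdkn1b had changes between −0.08 and 0.06. At an unadjusted p under 0.05, 4 of the 9 genes were lower with age and 0 higher, where 7.28% and 4.41% of all genes were. Over the 9 genes 8 changes were negative (88.9%) and the median was −0.08, beside 48.8% negative and a median of 0.00 over all genes. The 8 include Ccne2 at −0.0016, whose sign reversed in 9 of 21 alternative fits, some of which cannot move the change. They also include Ccnd1, Ccnd2 and Cdkn1b, whose confidence intervals included 0. Levels of Cdk4, Cdkn2c and Rb1 were correlated over the 10 arrays (Pearson r from 0.831 to 0.912), so the signs are not independent. The lowest r among the 9 genes was −0.573 (Ccnd2 and Ccnd3). A fall of the whole set was not tested.

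**Figure D1:**
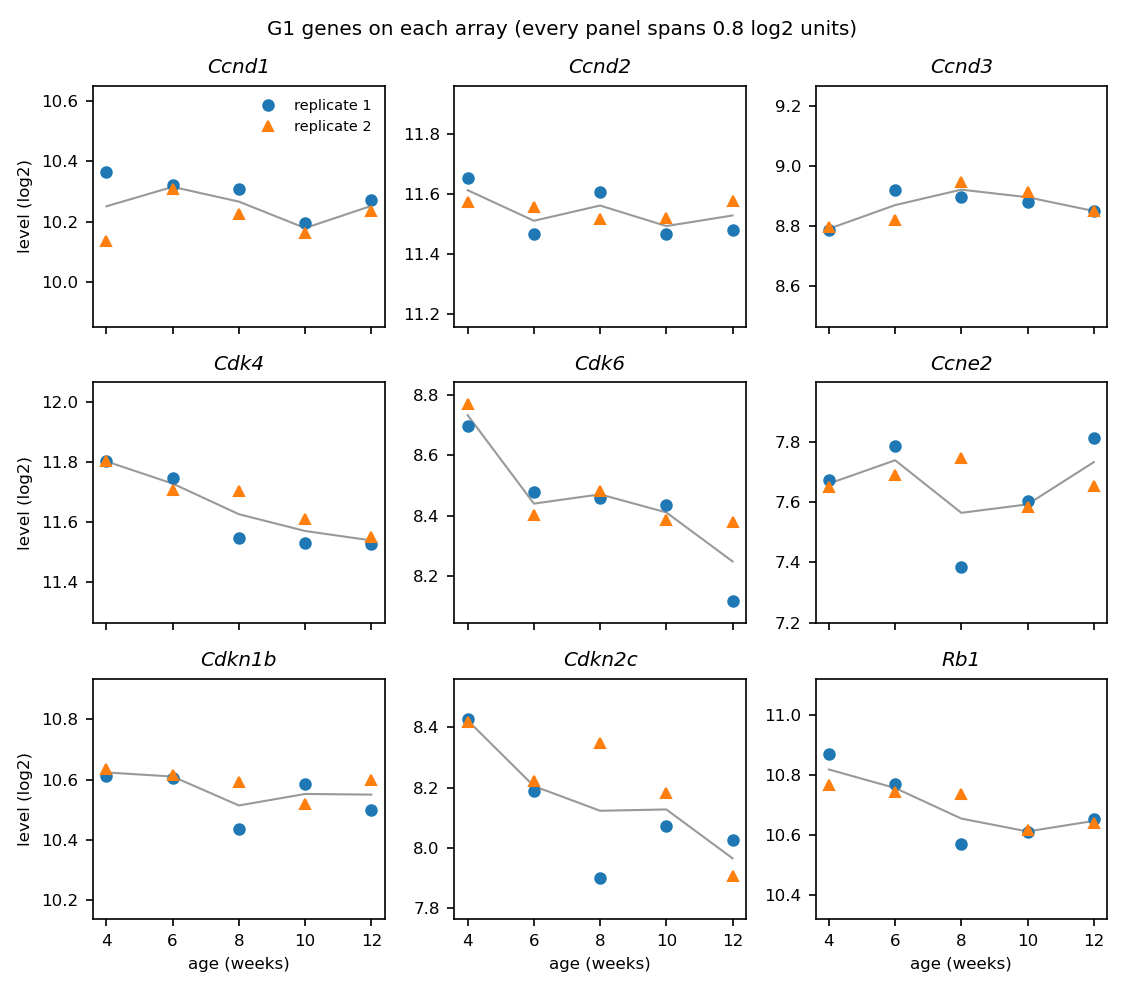
Level of each of the 9 measured G1 genes (log2, vertical axis) on every array against age in weeks; circles and triangles are replicates 1 and 2 and the grey line joins the means of 2 arrays. Cdk4, Cdk6 and Cdkn2c stand highest on both 4-week arrays, while Ccnd3 stands lowest on them and Ccnd1 and Ccnd2 show no such order.

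Cdk4, on chromosome 10 at 127063535 to 127067288 (GRCm38.p6), encodes a catalytic partner of all 3 D-type cyclins. Its level was 11.80 and 11.80 log2 units at 4 weeks, 11.75 and 11.71 at 6 weeks, 11.55 and 11.70 at 8 weeks, 11.53 and 11.61 at 10 weeks and 11.53 and 11.55 at 12 weeks. Each age mean was lower than the one before, and both 12-week arrays lay below all 4 arrays of 4 and 6 weeks. The fitted change was −0.27 ± 0.06 (SE, 95% interval −0.40 to −0.15), or 1.21-fold lower, with an unadjusted p of 0.00051 and an adjusted p of 0.0538 in limma. The call turned with the processing and the arrays used, since Cdk4 passed in 7 of 21 alternative limma fits, over a range of adjusted p from 0.00639 to 0.21. Among these 7 were the fits with quantile normalization (adjusted p = 0.0361) and without 8 weeks replicate 1 (0.0236). Cdk4 did not pass when any 4-week or 12-week array was left out, or without both 12-week arrays (0.21).

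Cdk6 (chromosome 5, 3341004 to 3531008), the other kinase of the D-type cyclins, had levels of 8.70 and 8.77 at 4 weeks, 8.48 and 8.40 at 6 weeks, 8.46 and 8.48 at 8 weeks, 8.44 and 8.38 at 10 weeks and 8.12 and 8.38 at 12 weeks. The 4-week arrays stood above the other 8, the arrays of 6 to 10 weeks were alike, and 1 of the 2 arrays of 12 weeks stood below all others. The step from 4 to 6 weeks was −0.29 ± 0.09 (SE, unadjusted p = 0.00932, adjusted p = 1), beside a difference of −0.49 ± 0.09 between 12 and 4 weeks (adjusted p = 0.0614). The trend had a change of −0.40 ± 0.09 (SE, 95% interval −0.59 to −0.21), or 1.32-fold lower, at an adjusted p of 0.0603, and passed in 5 of 21 alternatives, for example when 6 weeks replicate 2 was left out (0.0462). Without 12 weeks replicate 1 the change was −0.32 (adjusted p = 0.215).

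Cdkn2c (chromosome 4, 109660876 to 109666756), the inhibitor gene whose product binds these same kinases, was at 8.43 and 8.42 at 4 weeks, 8.19 and 8.22 at 6 weeks, 7.90 and 8.35 at 8 weeks, 8.07 and 8.18 at 10 weeks and 8.03 and 7.90 at 12 weeks. Its 4-week arrays were above the rest, and the 8-week arrays differed from each other by about as much as 4 from 12 weeks. The trend had a change of −0.40 ± 0.11 (SE, 95% interval −0.63 to −0.16, limma unadjusted p = 0.00294, adjusted p = 0.132). Leaving out 1 array of 8 weeks, the mean age, cannot move the slope of any gene and changes only the spread around it. Without 8 weeks replicate 1 the change was the same, −0.40, and passed (adjusted p = 0.0331), as it did without both arrays that stood apart (0.0294). It passed in 3 of 21 alternatives, over a range of adjusted p from 0.0294 to 0.41.

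Rb1 (chromosome 14, 73192858 to 73325951), the substrate of these kinases, had levels of 10.87 and 10.77 at 4 weeks, 10.77 and 10.74 at 6 weeks, 10.57 and 10.74 at 8 weeks, 10.61 and 10.62 at 10 weeks and 10.66 and 10.64 at 12 weeks. Values of 10 and 12 weeks lay below all 4 arrays of 4 and 6 weeks, with 1 of the 8-week arrays on either side of them. The change of −0.19 ± 0.06 (SE, 95% interval −0.34 to −0.05) did not pass (adjusted p = 0.228) and passed in 0 of 21 alternatives. On 8 weeks replicate 1, the array that correlated least with the rest, the lowest values of 4 genes were found, Ccne2, Cdkn1b, Cdkn2c and Rb1. The share of all genes lowest on that array is not given here, so the count is no result about these genes.

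Ccnd2 (chromosome 6, 127125162 to 127152188), the D-type cyclin of dentate neurogenesis, had levels of 11.65 and 11.57 at 4 weeks, 11.47 and 11.55 at 6 weeks, 11.61 and 11.52 at 8 weeks, 11.47 and 11.52 at 10 weeks and 11.48 and 11.58 at 12 weeks. The ages overlapped, 1 array of 12 weeks reaching the lower of the 4-week arrays. Its change was −0.07 ± 0.06 (SE, adjusted p = 0.727), with a 95% interval of −0.21 to 0.06. Ccnd1 (chromosome 7, 144929931 to 144939831), the D-type cyclin that many mitogens induce, ranged from 10.14 to 10.37, both extremes being 4-week arrays, and had a change of −0.05 ± 0.07 (SE, 95% interval −0.21 to 0.10). Ccnd3 (chromosome 17, 47505051 to 47599689), the third D-type cyclin, was at 8.79 and 8.80 at 4 weeks and 8.85 and 8.85 at 12 weeks, with its highest age mean, 8.92 ± 0.04 (SD, n = 2), at 8 weeks. The change was 0.06 ± 0.06 (SE, 95% interval −0.07 to 0.19).

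Ccne2 (chromosome 4, 11190433 to 11204779), which encodes a cyclin E that activates Cdk2, lay between 7.58 and 7.81 on all arrays but 8 weeks replicate 1, where it was 7.38. Its change was 0.00 ± 0.11 (SE, 95% interval −0.23 to 0.23), and its sign depended on the fit. Cdkn1b (chromosome 6, 134920401 to 134925525) ranged from 10.44 to 10.64 and had a change of −0.08 ± 0.06 (SE, 95% interval −0.22 to 0.05; adjusted p = 0.693). Its dimmer probe set, with a mean of 8.44, had a slope of −0.25 over the series, so both pointed the same way and differed in size.

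**Figure D2:**
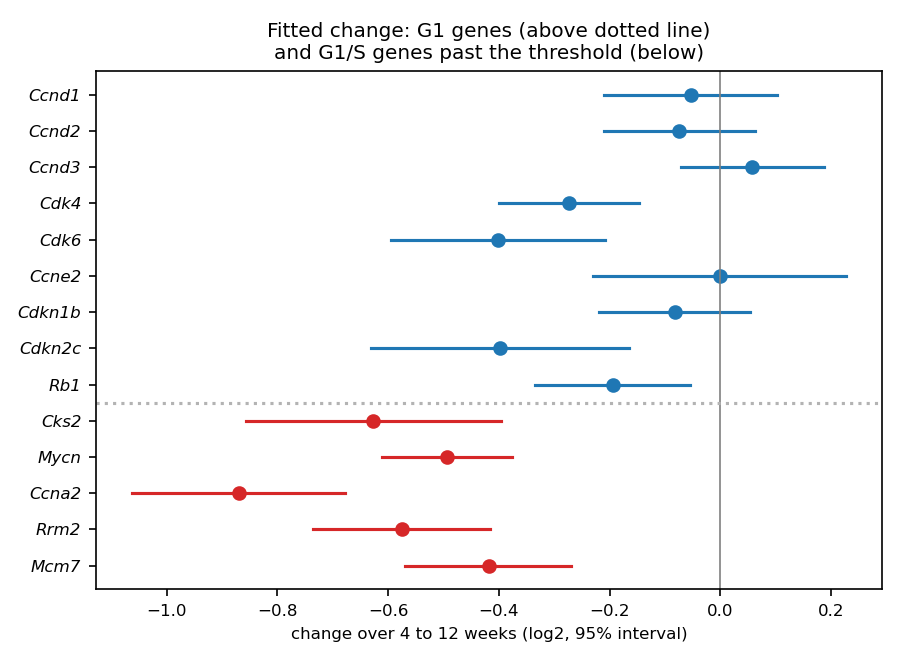
Fitted change over 4 to 12 weeks (log2, horizontal axis) with its 95% interval from limma for the 9 G1 genes and, below the dotted line, for the 5 other G1 and G1/S genes past the threshold (red). The intervals of Cdk4, Cdk6, Cdkn2c and Rb1 lie below 0 without passing the adjusted threshold, and those of the 3 D-type cyclins, Ccne2 and Cdkn1b include 0.

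**Figure D3:**
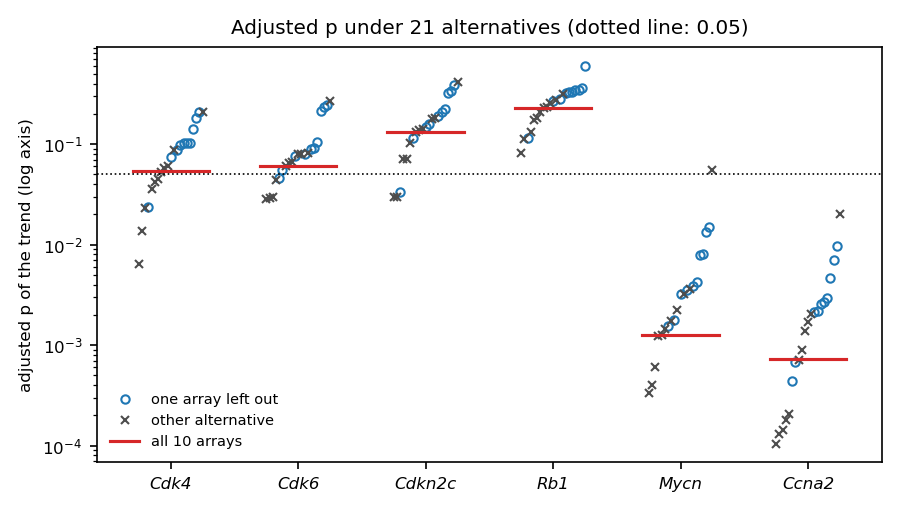
Adjusted p of the trend over age in limma (log axis) for 4 G1 genes and, for comparison, Mycn and Ccna2, under 21 alternative fits; red bars are the fit on all 10 arrays, open circles leave out 1 array, and the dotted line is 0.05. Cdk4, Cdk6 and Cdkn2c lie on both sides of the line, Rb1 lies above it, Ccna2 below it, and Mycn below it in all but 1 fit.

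Related genes were compared within arrays, by an exact permutation test over all 113400 assignments of the 5 ages to the 10 arrays (two-sided, adjusted over 3 pairs). The difference of Cdk4 minus Cdk6 changed by 0.13 over the series (exact permutation p = 0.243, adjusted p = 0.364). That of Ccnd2 minus Ccnd3 changed by −0.13 (exact permutation p = 0.162, adjusted p = 0.364), and that of Ccnd2 minus Ccnd1 by −0.02 (p = 0.796, adjusted p = 0.796). An unequal change within these pairs was therefore not detected. The comparison of 12 with 4 weeks, which uses the ends of the same series, called 0 of the 9 genes where it called 0.516% of all genes; at an unadjusted p under 0.05 it held Cdk4, Cdk6, Cdkn2c and Rb1 as lower, 4 of 9, where 5.43% of all genes stood. The 12-week arrays both lay below the 4-week arrays for Cdk4, Cdk6, Cdkn1b, Cdkn2c and Rb1, 5 of 9, and above them for Ccnd3, where 22.2% and 21.6% of all genes did so. A moderated F-test over any ages called 0 of 9 (0.167% of all genes); at an unadjusted p under 0.05 it held Cdk4 and Cdk6, 2 of 9, where 8.46% of all genes stood. The 4 successive steps called 0 of 9 and 0% of all genes after adjustment, and at an unadjusted p under 0.05 the step from 4 to 6 weeks held Cdk6 alone (4.13% of all genes) and the later steps 0 of 9 (6.25%, 4.79% and 5.59%).

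The promoters of the 3 genes with the largest changes are shown. They are the 250 bases before a start site, from RefSeq (GRCm38.p6), and capitals mark matches on either strand to the E-box CACGTG, the GC box GGGCGG or an E2F site (TTTCCCGC, TTTCGCGC, TTTGCCGC or TTTGGCGC). The windows are chr10:127063285-127063534 on the plus strand for Cdk4, chr5:3343643-3343892 on the plus strand for Cdk6 and chr4:109666757-109667006 on the minus strand for Cdkn2c.
Cdk4: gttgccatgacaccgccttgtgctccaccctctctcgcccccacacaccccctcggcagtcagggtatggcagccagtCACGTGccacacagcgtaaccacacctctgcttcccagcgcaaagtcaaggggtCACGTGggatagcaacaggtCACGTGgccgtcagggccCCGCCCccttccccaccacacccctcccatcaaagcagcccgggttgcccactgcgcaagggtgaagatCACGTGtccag
Cdk6: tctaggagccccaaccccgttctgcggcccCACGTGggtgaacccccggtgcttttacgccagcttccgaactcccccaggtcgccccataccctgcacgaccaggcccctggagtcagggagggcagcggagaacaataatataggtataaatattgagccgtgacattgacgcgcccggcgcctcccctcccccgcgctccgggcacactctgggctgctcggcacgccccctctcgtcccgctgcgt
Cdkn2c: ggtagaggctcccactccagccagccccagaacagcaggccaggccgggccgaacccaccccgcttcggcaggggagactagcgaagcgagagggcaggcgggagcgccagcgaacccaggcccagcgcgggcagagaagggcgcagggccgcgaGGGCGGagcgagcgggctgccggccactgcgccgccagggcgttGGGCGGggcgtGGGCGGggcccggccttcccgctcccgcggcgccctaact

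The Cdk4 window held 4 E-boxes, whose first bases lay 172, 118, 98 and 11 bases before the start, and 1 GC box. Of 32817 promoter windows of this length 6.02% held an E-box and 0.0213% held 4 or more. The Cdk6 window held 1 E-box, 220 bases before the start. That window lies inside the span given above for Cdk6, which begins at 3341004, so its start site is not the first base of the gene. The Cdkn2c window shown held 0 E-boxes and 3 GC boxes; 8.47% of all windows held as many GC boxes. A second start site of Cdkn2c, whose window is chr4:109665373-109665622 on the minus strand, held 0 matches to any of these motifs. An E2F site was in 0 of these 3 windows and in 1.86% of all. The windows of Ccnd3, Cdkn1a and Cdkn1b, which are not shown, held 0 E-boxes. Marked matches do not overlap one another, and each is a match of letters only. Myc-family proteins bind the E-box, and whether one acts on these genes was not tested.

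Among 87 other measured genes of the pathway, grouped by role, 5 fell in the trend and 0 rose, beside 0.673% lower and 0.147% higher of all genes tested (133 and 29 genes; 132 and 61 with quantile normalization), and the median change was −0.02. Mycn, which encodes a Myc-family transcription factor of neural progenitors and binds the E-box, fell by 0.49 on the log2 scale (SE 0.05, adjusted p = 0.00126). Its age means were 9.13, 8.98, 8.86, 8.76 and 8.62, lower at every step, and it was called in 20 of 21 alternatives, the exception being the fit without the 12-week arrays (adjusted p = 0.055). The relative Myc had a change of −0.09 ± 0.07, and of 18 upstream regulators only Mycn passed; Foxo3, a factor that restrains the cycle, had 0.20 ± 0.05 (adjusted p = 0.121). Another group joined the partners of the D cyclins with the cyclin E step, 8 genes in all. In it Cks2, a small subunit bound to cyclin-dependent kinases, fell by 0.63 (SE 0.11, adjusted p = 0.0179 in limma). Its mean went from 8.76 ± 0.03 at 4 weeks to 8.11 ± 0.05 at 12 weeks (SD, n = 2). It did not pass without 4 weeks replicate 1 (adjusted p = 0.117), 4 weeks replicate 2 (0.1) or 12 weeks replicate 1 (0.055), or without the 12-week arrays (0.0815). Cdk2, the kinase of cyclin E, had −0.34 ± 0.09 (adjusted p = 0.103) and passed in 1 of 21 alternatives, the fit with array weights (0.0382).

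Of 16 S-phase genes under E2F control 3 fell and 0 rose. Ccna2, the cyclin of S phase and G2, fell by 0.87 (SE 0.09, adjusted p = 0.00073), from 8.12 ± 0.09 to 7.19 ± 0.08 (SD, n = 2). Rrm2, the ribonucleotide reductase subunit, fell by 0.58 (adjusted p = 0.00341) and Mcm7, a subunit of the replication helicase, by 0.42 (adjusted p = 0.0162). Ccna2 and Rrm2 passed in all 21 alternatives and Mcm7 in 18, the exceptions being the fits without 4 weeks replicate 1 (0.108), 4 weeks replicate 2 (0.0913) or the 12-week arrays (0.0994).

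The E2F and DP factors had 0 calls among 10, with a median of −0.09. Tfdp1, a dimerisation partner of E2F, had −0.26 ± 0.08 and E2f1 −0.22 ± 0.08 (adjusted p = 0.22 and 0.27). The other inhibitors, 5 measured, had 0 calls and a median of 0.00; Cdkn2d, an INK4 gene of postmitotic neurons, had −0.06 ± 0.06 and Cdkn2b 0.07 ± 0.14. Other pocket proteins and the DREAM complex had 0 calls among 7, Lin54 being at 0.20 ± 0.07 and the histone-binding Rbbp4 at −0.12 ± 0.07. Ubiquitin ligases of G1 proteins had 0 calls among 9, with Cul1 at −0.11 ± 0.06 and Fbxo5, an inhibitor of the anaphase-promoting complex, at −0.11 ± 0.07. Of 14 p53 targets other than Cdkn1a 0 were called; the kinase gene Plk2 had −0.24 ± 0.07 and the dim Eda2r −0.21 ± 0.06.

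**Figure D4:**
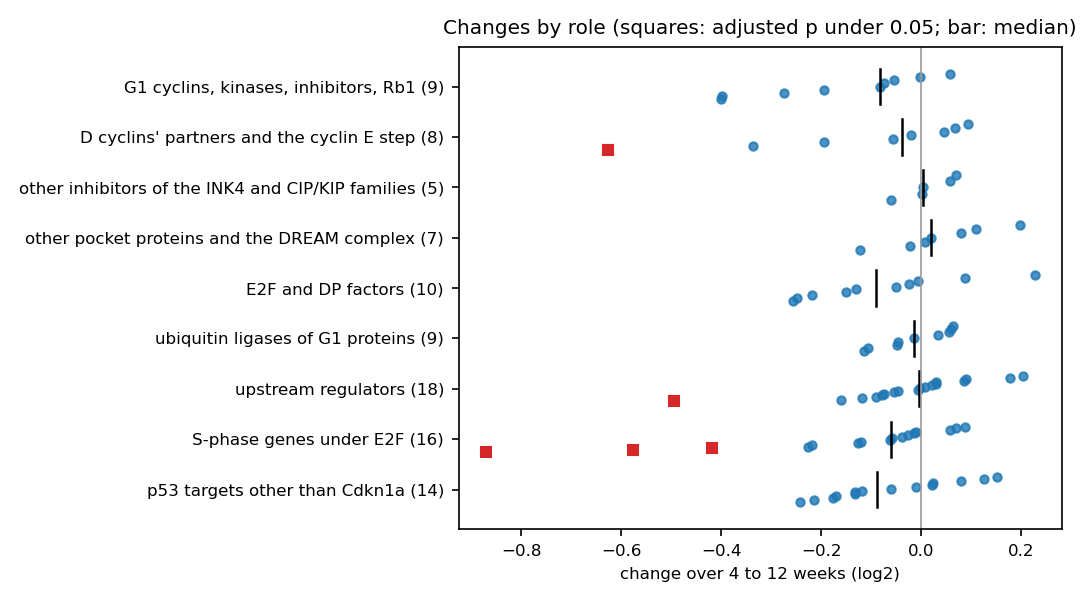
Fitted change over 4 to 12 weeks (log2) of each gene, by role, with the number of measured genes in brackets and the median as a bar; red squares are genes past an adjusted p of 0.05 in limma, which are Cks2, Mycn, Ccna2, Rrm2 and Mcm7. Most genes of every role lie within 0.3 of 0.

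The genes that followed Cdk4 most closely over the 10 arrays were sought among 14384 genes that were not dim and not in the set. They were Usp28 (Pearson r = 0.97), Cks2 (0.969), Cacna2d2 (0.964), Dusp11 (0.963) and Yeats2 (0.96). All levels were read on the same arrays, in the same order of ages. Cks2 is a pathway gene described above. These were picked as the highest correlations, so they carry no test.

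Several lists of cell type markers, some of them for neurogenic cells, had lower levels at 12 than at 4 weeks, as had Cdk4, Cdk6 and Cdkn2c. Their courses between these ages were not compared. In bulk tissue fewer cells of a type and less RNA per cell cannot be told apart. For dividing cells 4 of 6 markers fell (Ccna2, which is also a pathway gene, Mki67, Top2a and Ube2c), and the mean level of the list on an array went from between 7.66 and 7.68 at 4 weeks to between 7.04 and 7.13 at 12 weeks. For immature neurons 4 of 6 fell, with mean levels of 10.40 to 10.48 and of 9.34 to 9.36 at the same ages. For intermediate progenitors 2 of 4 fell, Eomes and Sstr2 (8.92 to 8.93, then 8.30 to 8.41). For radial glia-like cells 1 of 4 fell, Nes (8.86 to 8.92, then 8.57 to 8.65). Oligodendrocyte precursors had 3 of 6 lower (9.47 to 9.47, then 9.11 to 9.19) and oligodendrocytes 3 of 4 (10.91 to 10.97, then 10.33 to 10.41). In the endothelium list 0 of 5 passed, with 8.70 to 8.76 at 4 weeks and 8.86 to 9.15 at 12 weeks, and in the microglia list 0 of 4. In the granule cell list 1 of 6 fell, and 0 passed in the lists of astrocytes, mural cells, choroid plexus, ependyma, CA1, CA3 and interneurons. Cenpf of the dividing cells and Vnn1 of the radial glia-like cells were dim, as was 1 gene each of choroid plexus and ependyma. Of all genes tested the trend called 0.673% lower. The marker lists were chosen with earlier results of these data known, so their counts carry no test. The part of these cells in the values of the G1 genes was not tested.

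**Figure D5:**
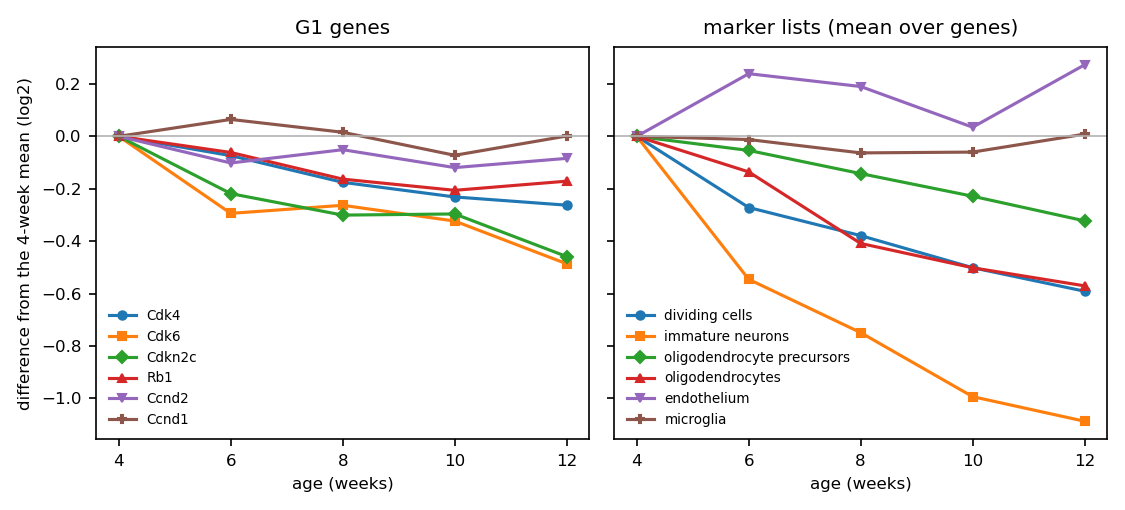
Difference of each age mean from the 4-week mean (log2) for 6 G1 genes (left) and for the mean over the genes of 6 marker lists (right), against age in weeks. At 12 weeks Cdk6 stood 0.49 and Cdk4 0.26 below 4 weeks, and the lists of dividing cells and immature neurons stood further below; Ccnd1 and the microglia list ended near 0.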

How the data were processed

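The deposited table gives 25254 probe sets on 10 arrays. The authors' deposited values are taken here to be log2 expression, since they run from 2.50 to 15.04 with array medians of 8.27 to 8.31; the log base and the software behind them are not given in the sources used here. The build is mm10 per the submitters' processing notes. The platform annotation names 1 gene for 21496 probe sets, several for 1565 and none for 2193. Only the first kind was tested, by the brightest probe set of a gene, which gave 19752 genes; 0 symbols changed on a check against RefSeq (GRCm38.p6), the source of coordinates and promoters (found for 6 of the 10 genes).

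Trends were fitted in limma 3.58.1 (R 4.3.3, lmFit and eBayes, two-sided, Benjamini-Hochberg over all genes, threshold 0.05) with age as a number, which leaves 8 residual degrees of freedom, and all other limma tests with age as a factor, which leaves 5. The code was tested on simulated data. Whether the 2 arrays of an age are separate animals is not labelled, so the p-values rest on the spread between arrays, which may be technical, and the number of arrays limits the precision. Genes and lists were chosen with earlier results of these data known. The text names all 10 genes, the called pathway genes (87 of 90 were measured), the 2 of smallest p in each role and the 5 genes most like Cdk4, which had the smallest p. The pair Cdkn1a and Cdkn1b was planned and not run, because Cdkn1a has no probe set of its own.

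Alternatives changed the scaling (quantile, median centring), the variance model (trended, robust, array weights), the genes (dimmest 30% left out, mean over probe sets), the age scale (log2), the block (replicate number) or the arrays used.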

Additional observations from a re-analysis of the deposited data

Results flagged for a closer look

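The probe set annotated to both Cdkn1a and 4930567H12Rik was left out of the gene tests, and stood out because it carries signal above the dim reference of 7.01, with a mean of 8.80 log2 units over the arrays. Its levels were 8.74 and 8.52 at 4 weeks, 8.79 and 8.77 at 6 weeks, 8.66 and 8.46 at 8 weeks, 9.14 and 8.75 at 10 weeks and 9.27 and 8.94 at 12 weeks. Both 12-week arrays lay above the arrays of 4, 6 and 8 weeks, and replicate 1 was the higher one at every age. In a fit chosen after seeing the data, with probe sets of several genes added (21317 tested), its change was 0.44 ± 0.16 (SE, limma, unadjusted p = 0.0146, adjusted p = 0.262). Leaving out each array in turn gave changes from 0.31 to 0.53 and adjusted p from 0.198 to 0.537. The replicate number was not a term of these fits, and the signal cannot be assigned to either gene here.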

How the results depend on the processing

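Sample titles give the ages the same replicate numbers. Deviations of same-numbered arrays from their age means correlated between −0.335 and 0.16 over 10 pairs of ages, with 3 over 0.1 and 2 under 0. The numbers were not taken to pair the arrays. With the replicate number as a block the counts were 0 of the 9 genes in the trend, 0 in the comparison of 12 with 4 weeks and 5 of the other G1 and G1/S genes, as without it, and the block changed no trend call among these genes. For the trend the count of the 9 genes was 1 with quantile normalization, 2 without the dimmest 30% of genes, 2 with a trended variance, 3 with array weights, 2 on log2 of age and 2 without both arrays that stood apart, and from 0 to 2 when 1 array was left out. For 12 against 4 weeks it was 1 with quantile normalization, 1 without the dimmest genes, 2 with a trended variance and 2 with array weights. Leaving out either 8-week array gave the same fit of this comparison. The comparison does not use the 8-week level, and 1 array alone at an age adds nothing to the spread. Counts of this comparison are not given for fits that leave 1 array at an age. Over all genes the trend called 162, against 350 with a trended variance, 417 with array weights, 337 without the dimmest genes, 51 without the 12-week arrays and from 35 (without 4 weeks replicate 1) to 279 (without 8 weeks replicate 1) when 1 array was left out. With quantile normalization the trend called 193 of all genes, on log2 of age 222 and without both arrays that stood apart 225. For 12 against 4 weeks the main fit called 102 of all genes. Its counts over all genes under the alternatives are not given here. The counts of the 9 genes under them are therefore not set beside a share and are no result about these genes. The F-test and the steps called 0 of 9 in each alternative run for them. Of the other G1 and G1/S genes 2 were called without the 12-week arrays, 6 with array weights (Cdk2 added), and from 3 to 5 when 1 array was left out. Leaving out the dimmest genes tests fewer genes; for the other settings the cause was not tested.

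The change of Ccne2 turned positive with median centring (0.012), array weights (0.011) and without both arrays that stood apart (0.022), and ranged from −0.091 to 0.029 when 1 array was left out. Under the same omission the difference of 12 from 4 weeks ranged from −0.11 to 0.12 for Ccnd1 and from −0.0093 to 0.15 for Ccne2, and the slope of Ccnd2 minus Ccnd1 from −0.058 to 0.058. These are values near 0 with no call in any fit. Cdk4, Cdk6, Cdkn2c and Rb1 had negative changes in all 21 alternatives.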
